A study of Mus musculus with 342 samples.

Results

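Inmt encodes an enzyme that transfers methyl groups from S-adenosylmethionine to small molecules, and its transcript was followed in the livers of genetically diverse mice given TAK-875 or vehicle. Inmt was 1 of 9093 genes measured, and 1 of 16397 probe sets on the array reads it. That probe set, 1418697_PM_at (Entrez gene 21743), is the only 1 that the platform's gene table names as Inmt alone, so no other probe set could serve as a check. The gene was chosen by its platform symbol, with the rule that the probe set of the highest mean over all arrays represents a gene. It was proposed for its vehicle level by line and its TAK-875 minus vehicle differences, with earlier results of these data known, so both are given as descriptions, with no test.

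The mice were males of 44 Collaborative Cross lines, recombinant inbred lines bred from several founder strains, about 8 to 10 weeks old. Each mouse received 1 oral gavage of either vehicle (0.5% w/v methylcellulose in water, dose 0 mg/kg) or TAK-875 at 600 mg/kg in that vehicle, and its liver was taken 24 h later. TAK-875 (fasiglifam) is an agonist of the fatty acid receptor GPR40 that was developed for type 2 diabetes. Dosing went by study pairs, each of 1 vehicle and 1 TAK-875 mouse of a line, which gave 171 pairs and 342 arrays, with 4 pairs in each of 39 lines and 3 pairs in each of 5 lines. All groups therefore share sex, age range, the gavage and the vehicle, and differ in line and in dose. Mice of a line share a genotype, and each line stands for 1 inbred genotype. The series title gives another compound number, and the sample labels, which name TAK-875, were followed. The labels speak of 1 line more than the 44, which was not analysed here.

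The Inmt protein (indolethylamine N-methyltransferase, also described as thioether S-methyltransferase) methylates tryptamine and related amines on nitrogen, and methylates small thioethers and selenium compounds on sulfur or selenium. It belongs to the same small family as Nnmt, the nicotinamide N-methyltransferase, and Pnmt, which makes adrenaline. The methyl donor, S-adenosylmethionine, is made from methionine by Mat1a in liver, and its use ties these enzymes to the methionine cycle, while tryptamine comes from tryptophan through the decarboxylase Ddc.

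Inmt lies on the minus strand of chromosome 6 in mouse assembly GRCm38.p6. As background on this gene, the reference sequence just before its start site is shown. RefSeq's promoter table for that assembly holds 1 entry for Inmt, and the 250 bases before the annotated start, at chr6:55174991-55175240, read 5′ to 3′ on the minus strand as follows, with the first copy of a repeated unit in capitals.

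Inmt promoter: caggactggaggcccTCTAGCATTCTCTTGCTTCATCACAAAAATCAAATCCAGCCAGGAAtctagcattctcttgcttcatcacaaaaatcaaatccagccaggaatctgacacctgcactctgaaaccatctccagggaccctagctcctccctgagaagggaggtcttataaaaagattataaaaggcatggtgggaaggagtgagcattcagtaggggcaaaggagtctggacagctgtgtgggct

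The capitals run from position -235 to -190 relative to the start site, and an identical copy begins at -189. The match between the copies is 49 bases long at an offset of 46 bases, and 84 of 27025 promoter windows of this length (0.311%) hold a direct repeat at least that long. The letters TATAAA were found 2 times, starting at -80 and -69, on a search of both strands, and 13.0% of windows hold them. Neither the E-box letters CACGTG, which 6.05% of windows hold, nor the GC box letters GGGCGG, which 32.9% hold, are in this window. These are matches of letters in the reference strain's sequence, and the founder alleles of the 44 lines were not analysed here.

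Among vehicle mice, Inmt levels ran from 4.53 to 12.36 on the log2 scale of the deposited values, with a median of 10.73. The line means ran from 6.39 in CC025/GeniUnc to 11.79 in CC059/TauUnc, a distance of 5.41 or 42.4-fold on the array's scale, with a median of 10.63. The SD of the vehicle line means was 1.53, against a median of 0.292 over all genes, which placed Inmt 43rd of the 9093 genes. The spread between mice of 1 line was smaller, with a pooled SD of 0.67 in vehicle mice. The lines thus differed by more than the mice within them, although single lines had SDs from 0.08 to 1.98.

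The order of the line means had 1 wide gap. CC029/Unc, at 7.68 ± 0.79 (SD, n = 4), and CC007/Unc, at 9.04 ± 1.01 (SD, n = 4), were 1.37 apart, and the next widest gap between neighbours was 0.55. Of the 43 steps between neighbouring lines, this was the only 1 larger than the SD of both its lines, so no other neighbours in the order differ beyond their spread. Below the gap were 7 lines with means of 6.39 to 7.68, and above it 37 lines, of which 20 had means between 9 and 11 and 17 had means above 11. The gap is one of line means and was found in the data, and single mice crossed it.

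The vehicle mice of the 7 low lines, in the order of their means, were as follows. CC025/GeniUnc had levels of 7.36, 6.27, 5.39 and 6.53. CC035/Unc had the tightest set of these lines, at 6.70, 6.52, 6.41 and 6.45. CC053/Unc, with 3 mice, had 7.18, 6.42 and 6.23. All 11 of these mice lay under the lowest vehicle mouse of the 37 other lines, at 7.77. CC008/GeniUnc had the widest set, at 7.62, 7.16, 9.32 and 4.53, which holds both the highest and the lowest vehicle mouse of the low lines. CC042/GeniUnc, with 3 mice, had 7.45, 8.18 and 6.35. CC063/Unc had 7.83, 7.30, 7.07 and 7.63, and CC029/Unc had 8.44, 8.26, 7.18 and 6.83. In all, 5 of the 26 vehicle mice of these lines were above 7.77, and 11 of the 145 vehicle mice of the other lines were below 9.32. At the top of the order, the 4 mice of CC059/TauUnc had levels of 12.06, 11.68, 12.36 and 11.07. The 3 mice of CC006/TauUnc, at 11.37, 11.45 and 11.54, were the closest to each other.

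**Figure D1:**
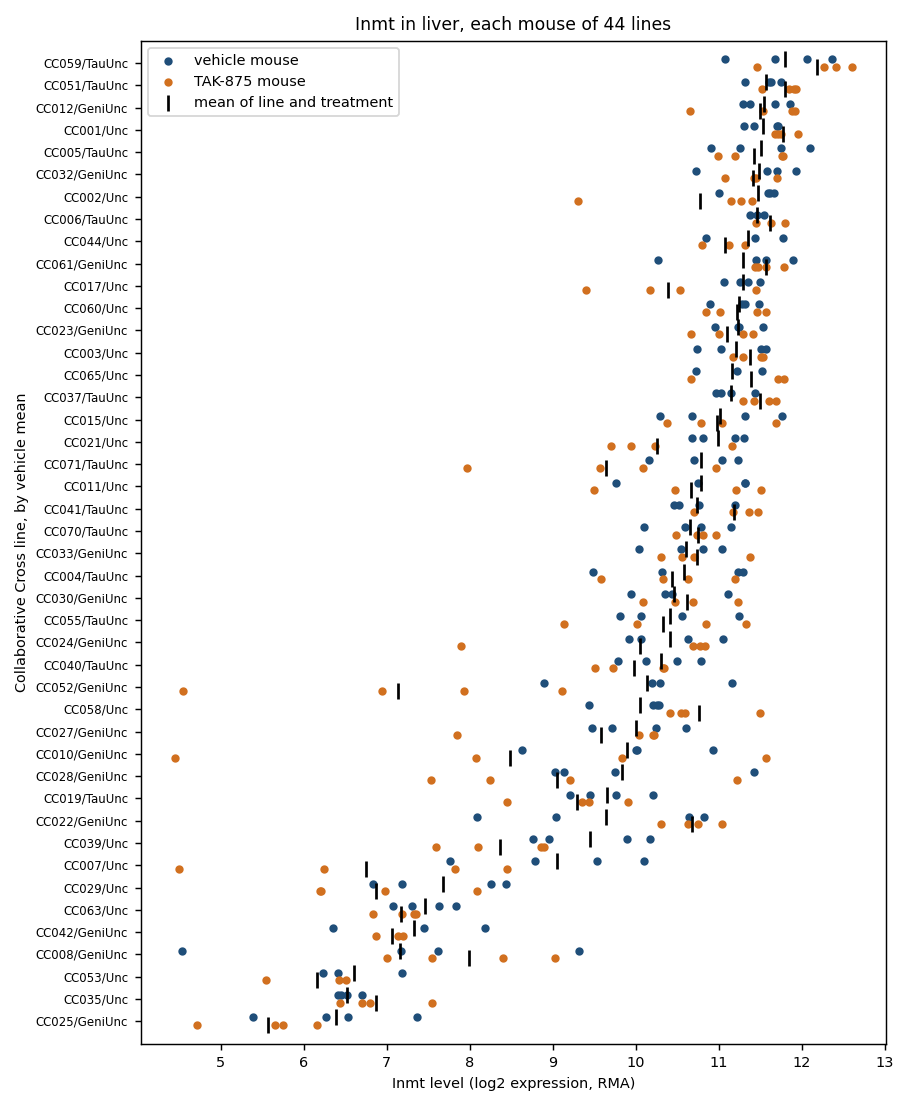
Inmt level (log2 expression, horizontal axis) of each mouse of the 44 lines, ordered by vehicle mean, with blue points for vehicle mice (upper of each line's row), orange points for TAK-875 mice (lower) and a black tick for each mean. The 7 lines at the bottom have vehicle means of 6.39 to 7.68, the other 37 have means of 9.04 or more, and orange points far to the left of their line appear in CC052/GeniUnc, CC010/GeniUnc and CC007/Unc.

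The line pattern was also seen in the other mice of each line, those given TAK-875. The 7 low lines had TAK-875 means of 5.57 to 7.99, while the TAK-875 line means as a whole ran from 5.57 to 12.19. Within the 37 lines above the gap, vehicle and TAK-875 line means correlated with r = 0.82 (Spearman rho 0.85, and r = 0.75 without the 2 lines farthest from the median), and within the 7 lines below it with r = 0.62 (rho 0.46). These correlations are descriptions over line means of different mice that share a genotype. Among the 37 lines, CC007/Unc and CC052/GeniUnc had TAK-875 means of 6.75 and 7.13, inside the range of the low lines. With 1 probe set, a difference in the amount of transcript and a difference in how founder alleles bind the probes cannot be told apart. In whole liver, fewer cells of a type and less RNA per cell cannot be told apart either.

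Across the 44 lines, the TAK-875 minus vehicle difference of Inmt had a mean of -0.26 ± 0.74 (SD over lines, n = 44), which is 1.20-fold lower with TAK-875, and a median of -0.10. The vehicle and TAK-875 means over lines were 10.15 and 9.90. The difference was below 0 in 28 lines and above 0 in 16, its quartiles were -0.51 and 0.18, and 30 lines differed by less than 0.5 in size. Leaving out 1 line at a time gave means from -0.29 to -0.19, the latter without CC052/GeniUnc, and leaving out pair 1 of every line gave -0.17. The median difference over all genes was 0.01. For its spread between lines Inmt stood 51st of the 9093 genes, with an SD of 0.745 against a median of 0.244.

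Differences per line ran from -3.00 ± 2.83 (SD, n = 4 pairs) in CC052/GeniUnc to 1.04 ± 1.15 (SD, n = 4) in CC022/GeniUnc. CC052/GeniUnc had vehicle levels of 11.16, 8.90, 10.28 and 10.19 and TAK-875 levels of 4.54, 9.11, 6.95 and 7.93 in pairs 1 to 4. In this line 3 pairs were lower with TAK-875 and 1 was slightly higher, and the TAK-875 mice overlap the vehicle mice through pair 2 alone. CC007/Unc had vehicle levels of 9.53, 10.10, 8.79 and 7.77 and TAK-875 levels of 7.82, 8.45, 4.50 and 6.24. All 4 of its pairs were lower with TAK-875, by 1.53 or more, and its mean difference was -2.29 ± 1.33 (SD, n = 4). CC010/GeniUnc had vehicle levels of 10.00, 10.93, 8.63 and 10.02 and TAK-875 levels of 8.07, 11.57, 9.83 and 4.44. Its pairs were split 2 and 2, so its mean of -1.42 ± 3.09 (SD, n = 4) is smaller than its spread. In CC022/GeniUnc, vehicle levels were 10.63, 8.09, 10.82 and 9.03, and TAK-875 levels were 11.04, 10.62, 10.74 and 10.31. The TAK-875 mice of this line were close together and near its 2 higher vehicle mice.

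Counted by pairs, Inmt was lower with TAK-875 in 92 of 171 and higher in 79, with a median difference of -0.06. The tails were uneven, since 27 pairs were lower by more than 1 and 10 higher by more than 1. A difference of more than 2, or 4-fold, was found in 11 pairs on the lower side, spread over 9 lines, and in 2 pairs on the higher side. The SD of the pair differences within lines was 1.07. In vehicle mice the pooled SD within lines was 0.67 and in TAK-875 mice 0.90, and the TAK-875 SD was the larger in 25 of 44 lines. Only 5 mice of all had a level below 5, of which 4 had received TAK-875 (4.44, 4.50, 4.54 and 4.71) and 1 vehicle (4.53, in CC008/GeniUnc).

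In 5 lines (CC007/Unc, CC021/Unc, CC028/GeniUnc, CC029/Unc and CC071/TauUnc) every pair was lower with TAK-875, and in 3 lines (CC001/Unc, CC041/TauUnc and CC058/Unc) every pair was higher. The groups did not overlap in 1 line, CC058/Unc, where vehicle levels of 10.21, 10.28, 10.25 and 9.43 stood against TAK-875 levels of 10.41, 11.49, 10.59 and 10.54, a difference of 0.72 ± 0.52 (SD, n = 4). In the other 2 lines of that kind the differences were 0.24 in CC001/Unc and 0.45 in CC041/TauUnc. No line had all its TAK-875 mice below all its vehicle mice. The 7 low lines had differences from -0.82 to 0.83, so their level was low with or without TAK-875.

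**Figure D2:**
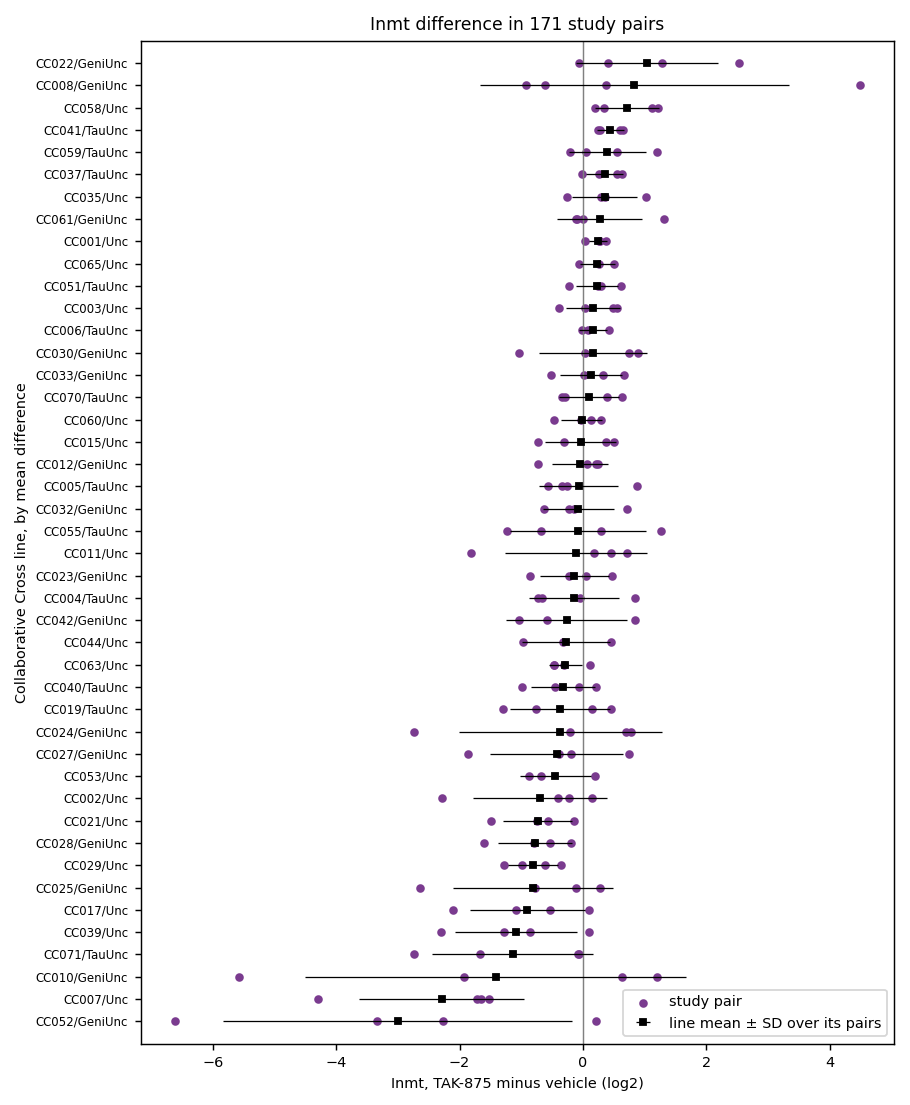
Inmt difference, TAK-875 minus vehicle (log2, horizontal axis), for each of the 171 study pairs as points, with a square and bar for the mean ± SD over the pairs of each line, ordered by line mean. Most lines lie within 0.5 of 0, and the longest bars belong to CC052/GeniUnc, CC010/GeniUnc and CC008/GeniUnc, each of which holds 1 pair beyond 4 in size.

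The largest differences were each found in 1 pair of a line. Pair 1 of CC052/GeniUnc went from 11.16 in the vehicle mouse to 4.54 in the TAK-875 mouse, a difference of -6.61. Pair 4 of CC010/GeniUnc went from 10.02 to 4.44, a difference of -5.57, and pair 3 of CC007/Unc from 8.79 to 4.50, a difference of -4.29. In the opposite direction, pair 4 of CC008/GeniUnc went from 4.53 in the vehicle mouse to 9.02 in the TAK-875 mouse, a difference of 4.49. The low mice of these 4 pairs lie at 4.44 to 4.54, under every array's median over probe sets, and their background is not known, so no fold is given and the order of these sizes follows the other mouse of each pair. In this last pair the unusual mouse was the vehicle mouse, since the other vehicle mice of its line were between 7.16 and 9.32. Over all arrays the median correlation with arrays of the same line and treatment was typically 0.976, and 6 TAK-875 arrays, in 6 pairs, stood apart by a value under 0.927. The TAK-875 array of pair 4 of CC010/GeniUnc had the lowest value of all, 0.821, whereas the unusual arrays of CC052/GeniUnc, CC007/Unc and CC008/GeniUnc had 0.959, 0.960 and 0.953 and did not stand apart. Without the 6 pairs the mean difference of Inmt over lines was -0.23, and the pooled SD of TAK-875 mice 0.81.

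The genes whose differences were most like those of Inmt over the 171 pairs were found by Pearson's r across all measured genes. The highest was Ces1d, a hepatic carboxylesterase that hydrolyses triglycerides and esters, at r = 0.71 (rho 0.52). Next came Slc47a1, which exports organic cations from cells, at 0.67 (rho 0.50), and Serpina6, the corticosteroid-binding globulin of plasma, at 0.66 (rho 0.47). Uroc1, the urocanate hydratase of histidine breakdown, had r = 0.65, and Hibadh, a dehydrogenase of valine breakdown, had r = 0.64. The remaining 3 of the 8 highest were Nat8f1, of the N-acetyltransferase 8 family, at 0.62, Coq8a, which serves coenzyme Q synthesis, at 0.62, and Ttc36 at 0.60. At the other end were Prelid2 at -0.57, Tceal9 at -0.54, Rpap3, part of a co-chaperone complex, at -0.54, and Dnajc12, a co-chaperone of the aromatic amino acid hydroxylases, at -0.53. The median r over all genes was -0.02, with 64 genes above 0.5 and 6 below -0.5. The probe sets of Uroc1, Hibadh and Tceal9 are of classes that can bind several transcripts.

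These correlations are descriptions over pairs that share lines, arrays and tissue, and a few pairs weigh on them. Without the 2 pairs farthest from the median of Inmt, an alternative chosen after seeing the data, r was 0.62 for Ces1d, 0.62 for Slc47a1, 0.57 for Serpina6 and -0.47 for Prelid2, and 34 genes were above 0.5. Without the 6 pairs with an array that stands apart, r was 0.67, 0.63, 0.62 and -0.55, and 38 genes were above 0.5. The likeness was seen both between lines and inside them: over the 44 line means r was 0.70 for Ces1d, 0.61 for Slc47a1 and 0.65 for Serpina6, and over deviations within lines it was 0.72, 0.71 and 0.67. Uroc1 and Hibadh were more alike between lines, at 0.76 and 0.74, than within them, at 0.58 and 0.56. The first place therefore depends on the measure: Uroc1 was highest over line means, and Hibadh was highest by rho (0.55) and without pair 4 of every line. Of the 4 lowest genes, 1 to 4 stayed among the 4 lowest under another setting.

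For the 4 pairs with the largest Inmt differences, picked by that size, the values of the 3 highest genes and of Prelid2 are given. In pair 1 of CC052/GeniUnc, where Inmt differed by -6.61, Ces1d differed by -2.45, Slc47a1 by -0.90, Serpina6 by -3.38 and Prelid2 by 2.49. In pair 4 of CC010/GeniUnc, where Inmt differed by -5.57, the same genes differed by -4.93, -2.95, -4.58 and 2.37. In pair 3 of CC007/Unc, with Inmt at -4.29, they differed by -1.91, -1.46, -3.23 and 0.83. The 3 positively related genes were lower and Prelid2 was higher in each of these pairs. These genes were ranked by r over pairs that include the 4 given here, so their directions in them are no separate evidence. In pair 4 of CC008/GeniUnc, with Inmt at 4.49, the directions were turned, at 3.54, 1.87, 1.37 and -1.33. Of these 4 pairs, pair 4 of CC010/GeniUnc, whose TAK-875 array stands apart, had the largest differences of Ces1d, Slc47a1 and Serpina6.

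**Figure D3:**
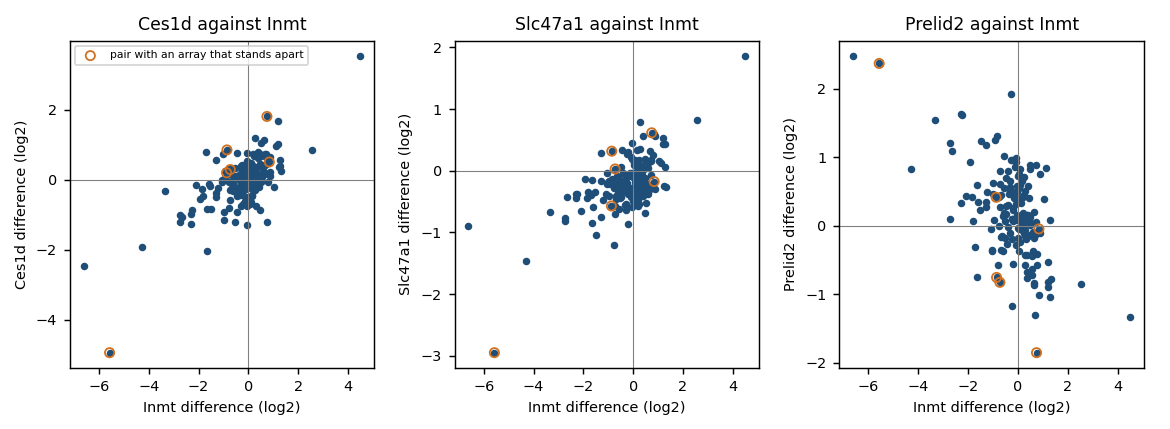
Difference (TAK-875 minus vehicle, log2) of Ces1d, Slc47a1 and Prelid2 on the vertical axes against that of Inmt on the horizontal axis, each point 1 of 171 study pairs, with orange rings on the 6 pairs with an array that stands apart. Most pairs form a cloud around 0, while 3 pairs at the far left and 1 at the far right extend the trend, upward for Ces1d (r = 0.71) and Slc47a1 (0.67) and downward for Prelid2 (-0.57).

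A gene can follow Inmt from pair to pair without a mean difference of its own. In limma's test of the 44 line means, at a Benjamini-Hochberg adjusted p of 0.05, 27.1% of the 9093 genes were called, 15.3% higher and 11.9% lower with TAK-875. Serpina6 fell by 0.66 ± 0.45 (SD, n = 44 lines, adjusted p = 3.06e-11), lower in 42 lines. Hibadh fell by 0.20 ± 0.14 (adjusted p = 3.74e-10), also lower in 42 lines. Nat8f1 fell by 0.39, Coq8a by 0.23, Slc47a1 by 0.19 and Uroc1 by 0.17, with adjusted p from 4.81e-07 to 0.000271. Ces1d, the gene most like Inmt by r over all pairs, had a mean difference of -0.03 ± 0.41 (adjusted p = 0.755), lower in 20 lines and higher in 24. Ttc36 did not pass either, at -0.06 (adjusted p = 0.0607). Of the 4 negatively related genes only Prelid2 passed, and rose by 0.18 ± 0.36 (adjusted p = 0.00872). So 7 of these 12 genes were called, 6 lower and 1 higher, in a contrast that also chose them through their likeness to Inmt.

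The vehicle level of Inmt by line was compared with that of every other gene in the same way, over the 44 vehicle line means. The 6 genes with the highest r were Thnsl2 (0.55), 2310040G24Rik (0.54), Elmod3 (0.54), Gimap9 (0.53), Fmc1 (0.52) and Vamp5 (0.52). The 3 with the lowest were Hmces (-0.65), Mrps25 (-0.64) and Copg1 (-0.64). Thnsl2 is a threonine synthase-like protein, Gimap9 a GTPase of lymphocytes, Fmc1 an assembly factor of mitochondrial ATP synthase and Vamp5 a membrane fusion protein. Hmces shields abasic sites in DNA, Mrps25 is a protein of the mitochondrial ribosome, and Copg1 a subunit of the COPI vesicle coat. All 9 genes lie on chromosome 6, as Inmt does.

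The pooled r values carry the separation between the 7 low lines and the 37 others, so they are also given within each set. Among the 37 lines r was 0.50 for Thnsl2, 0.32 for Elmod3, 0.24 for 2310040G24Rik and Fmc1, 0.22 for Vamp5 and -0.19 for Gimap9. For the negatively related genes it was -0.31 for Mrps25, -0.31 for Copg1 and -0.16 for Hmces. Thnsl2 was thus the only 1 of the 9 that kept a value of that size within the 37 lines, and within the 7 low lines its r was 0.27. The vehicle line means of Hmces were between 5.64 and 6.37 in the 7 low lines (median 6.23) and between 5.07 and 6.27 in the others (median 5.45), so the sets overlap. For Gimap9 the low lines were between 4.95 and 5.70 (median 5.31) and the others between 5.41 and 6.20 (median 5.72), again with overlap. In the TAK-875 mice, which are other animals of the same lines, r over 44 lines was 0.64 for Thnsl2, 0.58 for 2310040G24Rik, 0.46 for Elmod3, 0.39 for Gimap9, 0.64 for Fmc1, 0.67 for Vamp5, -0.58 for Hmces, -0.37 for Mrps25 and -0.51 for Copg1. Setting Inmt of the vehicle mice against the gene in the TAK-875 mice, so that no array is shared, gave 0.58, 0.58, 0.45, 0.44, 0.63, 0.64, -0.50, -0.36 and -0.34 in the same order. The signs were the same in all 9 genes, and the values of Elmod3, Gimap9, Hmces, Mrps25 and Copg1 were nearer to 0 than in vehicle mice. The largest such move was that of Mrps25 in the TAK-875 mice and that of Copg1 where no array is shared.

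Of the 20 genes most like Inmt by the size of r in vehicle mice, 12 (60.0%) were on chromosome 6, as were 17 of the first 50 (34.0%) and 25 of the first 100 (25.0%). Of the 9084 genes placed on a chromosome, 492 (5.42%) were. Between 9 and 13 of the first 20 were on chromosome 6 when arrays were rescaled, probe sets averaged, a replicate number left out or the 6 pairs left out. In the TAK-875 mice it was 8 of 20, and 7 of 20 with Inmt from vehicle mice and the other gene from TAK-875 mice. Of the 20 genes most like Inmt in the TAK-875 difference, 3 were on chromosome 6 over pairs (Uroc1, Hibadh and Nat8f1) and 4 over line means. Whether these counts differ from those of the vehicle levels was not tested.

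The likeness was not that of the nearest genes. Inmt holds place 149 among 493 measured genes in the order along chromosome 6, and the 9 genes named lie 23 (Thnsl2) to 144 (Mrps25) measured genes away. The 5 measured neighbours on one side are Wipf3, Plekha8, Znrf2, Nod1 and Gars, and the 5 on the other are Aqp1, Pde1c, Lsm5, Avl9 and Kbtbd2. Their vehicle line means correlated with those of Inmt between -0.19 (Avl9) and 0.31 (Wipf3), and the SDs of their line means were 0.158 to 0.366, against 1.53 for Inmt. Their TAK-875 differences correlated with those of Inmt between -0.17 and 0.33 over the 171 pairs, the highest being Aqp1, a water channel. Of the 10 neighbours 2 were called in the mean over lines, against the 27.1% of all genes given above. Znrf2, a ubiquitin ligase, rose by 0.18 ± 0.18 (SD, n = 44, adjusted p = 8.39e-07), and Nod1, a sensor of bacterial cell wall fragments, fell by 0.20 ± 0.25 (adjusted p = 4.39e-05). The lines carry long founder segments, so genes on 1 chromosome need not be independent of each other in these correlations. Founder segments were not analysed here, and their part was not tested. Over the whole chromosome the median size of r was 0.120, against 0.103 for other chromosomes.

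**Figure D4:**
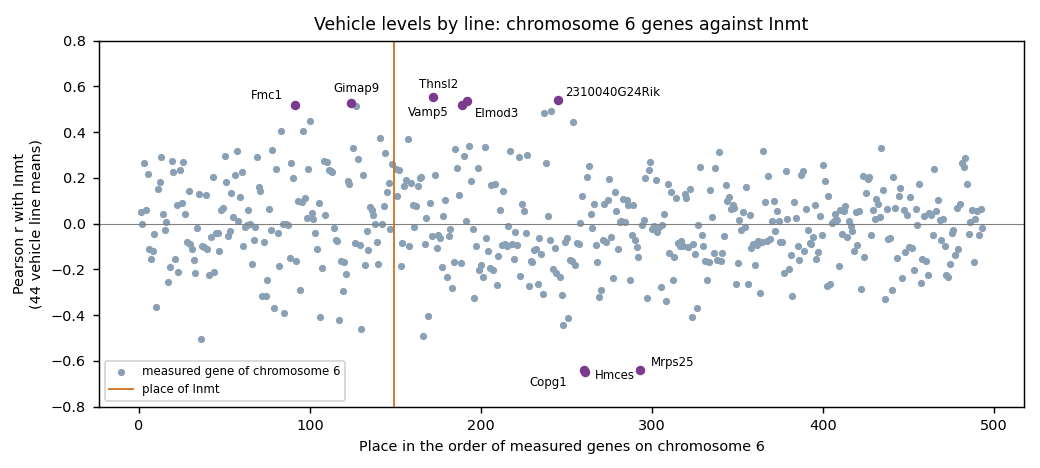
Pearson's r with Inmt over the 44 vehicle line means (vertical axis) for each measured gene of chromosome 6, by its place in the order of measured genes (horizontal axis), with the place of Inmt as an orange line and the 9 named genes in purple. The named genes lie on both sides of Inmt, up to 144 places away, and the genes beside the line have values of -0.19 to 0.31.

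Inmt works beside other methyltransferases and within pathways that supply its donor and its substrates, and 4 lists of such genes were read in the same test. Of the 22 small-molecule methyltransferases listed, 15 were measured, of which 1 rose and 4 fell, with a median difference of 0.02, against 15.3% and 11.9% of all genes and a median of 0.01. Nnmt, the nicotinamide methyltransferase of the same family, fell by 0.54 ± 0.63 (SD, n = 44, adjusted p = 6.1e-06), lower in 36 lines. Its pair differences had r = -0.32 with those of Inmt, so it did not run with Inmt from pair to pair. Gamt, which makes creatine, fell by 0.34 ± 0.47 (adjusted p = 0.000113), and its r with Inmt was 0.55. Hnmt, which methylates histamine, differed by -0.15 (adjusted p = 0.0448), Tpmt, which methylates thiopurines, by 0.13 (adjusted p = 0.0443), and Gnmt, which methylates glycine, by -0.04 (adjusted p = 0.0379). These 3 calls are near the threshold and each was lost under 3 or 4 of the alternatives tried. Pnmt was not analysed here.

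In the methionine cycle and one-carbon list, 24 of 34 genes were measured, of which 2 rose and 10 fell, with a median of -0.05. Cbs, which draws homocysteine off to cystathionine, fell by 0.27 ± 0.23 (SD, n = 44, adjusted p = 8.92e-09), lower in 41 lines. The folate enzymes Shmt1 and Aldh1l1 fell by 0.24 and 0.19 (adjusted p = 0.000248 and 6.98e-08). Mat1a, which makes S-adenosylmethionine in liver, rose by 0.17 ± 0.26 (adjusted p = 0.000398), higher in 32 lines. Over pairs, Mat1a had r = -0.22 with Inmt, while Aldh1l1 had 0.47 and Cbs 0.22.

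In the tryptophan and amine list, 23 of 35 genes were measured, of which 1 rose and 8 fell, with a median of -0.03. Kynu, of the kynurenine pathway, fell by 0.40 ± 0.40 (SD, n = 44, adjusted p = 5.67e-07). Ddc, the decarboxylase that makes tryptamine, fell by 0.30 ± 0.34 (adjusted p = 3.72e-06), lower in 37 lines, and Ido2, a tryptophan dioxygenase, by 0.30 ± 0.33 (adjusted p = 3.96e-06). Haao, another kynurenine pathway enzyme, fell by 0.20 (adjusted p = 3.59e-05), and of these 4 it had the highest r with Inmt, at 0.55. Tdo2, the main tryptophan dioxygenase of liver, differed by -0.01 ± 0.23 (adjusted p = 0.885). Maob, a monoamine oxidase, differed by -0.11 (adjusted p = 0.0157), a call that was lost under 3 alternatives.

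In the selenium and thiol list, 33 of 37 genes were measured, of which 6 rose and 11 fell, with a median of -0.03. Dio1, a selenoprotein that activates thyroid hormone, fell by 1.21 ± 0.55 (SD, n = 44, adjusted p = 1.94e-16), which is 2.31-fold, and was lower in all 44 lines. Its pair differences had r = 0.16 with those of Inmt. Ethe1, a sulfur dioxygenase of mitochondria, fell by 0.45 ± 0.32 (adjusted p = 1.9e-10), with r = 0.49. Selenbp2, a selenium-binding protein, fell by 0.13 (adjusted p = 0.000479), with r = 0.44. Gsr, the glutathione reductase, rose by 0.26 ± 0.18 (adjusted p = 1.63e-10), and Gpx4, the glutathione peroxidase for lipid peroxides, by 0.21 ± 0.26 (adjusted p = 2.07e-05). Scly, which frees selenium from selenocysteine, differed by -0.01 (adjusted p = 0.931). Over the 4 lists, 95 genes were measured and 43 called, 10 higher and 33 lower, against 27.1% of all genes called, 15.3% higher and 11.9% lower. All genes include dim ones, and the lists were not matched to them by level. With the dimmest 25% of genes left out, 2275 genes were still called, against 2466 with them, so the share called is larger among brighter genes. The lists' calls were 7 higher and 36 lower with centred arrays and 10 higher and 37 lower after quantile normalization. The higher calls became 17, against 40 lower, with study pairs as the unit, and 17, against 30 lower, without the 6 pairs with an array that stands apart. The direction of calls over all genes depends on scaling: 56.3% of them were higher as deposited, 44.1% with arrays centred on their medians and 46.0% after a further quantile normalization.

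**Figure D5:**
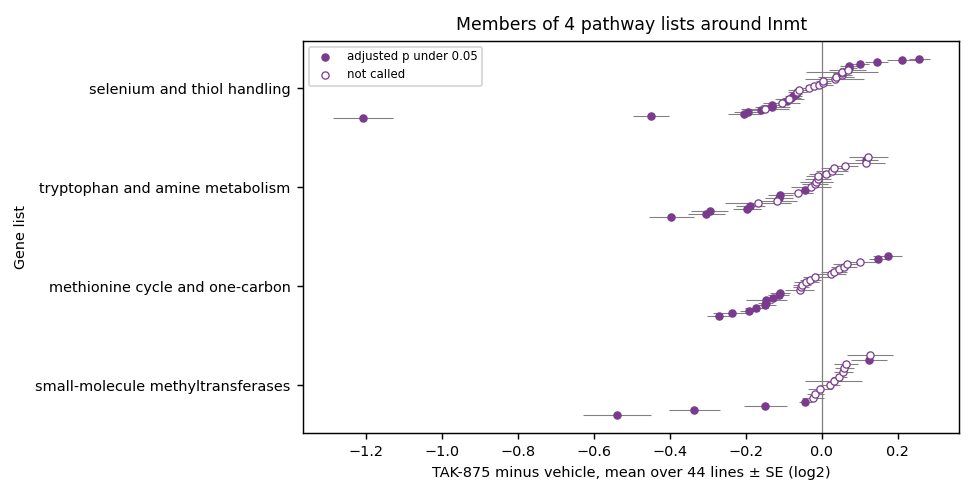
TAK-875 minus vehicle difference (log2, horizontal axis), mean over 44 lines ± SE, of the 95 measured members of the 4 lists, filled where limma's adjusted p was under 0.05. Filled points lie mostly to the left of 0 (33 of 43), with Dio1 far to the left at -1.21.

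The mean difference of each list's members was set against the difference of Inmt over the 171 pairs, as a description. The r was 0.00 (rho -0.09) for the methyltransferases and 0.27 (rho 0.12) for the methionine cycle. It was 0.33 (rho 0.16) for tryptophan and amines and 0.33 (rho 0.27) for selenium and thiols. Slc47a1 is itself in the tryptophan and amine list. Among lists of liver cell types and programs, the highest r was that of the pericentral hepatocyte list, at 0.46 (rho 0.30), and the periportal list had 0.34 (rho 0.06). The general hepatocyte list had -0.32 (rho -0.37) and glucocorticoid targets -0.34 (rho -0.38). Serpina6, whose own r was 0.66, is a member of the glucocorticoid target list. Lists of Kupffer cells and macrophages (0.06), liver endothelium (0.05), cholangiocytes (0.08) and red blood cells (0.03) had values near 0. Stellate cells had 0.26 (rho 0.11), B cells 0.32 (rho 0.29) and neutrophils -0.28 (rho -0.17). Male-biased liver genes had 0.25 (rho 0.20), female-biased genes 0.21 (rho 0.10), PPARA targets 0.19 (rho 0.17) and clock genes 0.01 (rho 0.05).

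Members of these lists were also called in limma's mean over lines, where 15.3% of all genes were higher and 11.9% lower. Of the 16 measured Kupffer cell genes 13 fell and 0 rose, of 20 endothelial genes 5 fell, of 15 stellate cell genes 5 fell, of 5 B cell genes 4 fell and of 4 red blood cell genes 2 fell, in each case with 0 higher. The B cell list's calls were mostly MHC class II genes, H2-Ab1 (-0.49), Cd74 (-0.36) and H2-Aa (-0.35), beside Jchain (-0.14). Of 4 cholangiocyte, 7 neutrophil and 1 T and NK cell genes, 0 were called by limma at an adjusted p of 0.05, and 0 had an unadjusted p under 0.05. Of 21 pericentral genes 4 rose and 9 fell, and of 22 periportal genes 2 rose and 13 fell. The Kupffer cell marker level, the mean of the list's log2 values in a mouse, ran from 5.95 to 8.07 in vehicle and from 5.22 to 7.89 in TAK-875 mice, and that of hepatocytes from 12.35 to 12.92 and from 12.38 to 12.92. The hepatocyte markers were thus high in every mouse. The part of these lists in the Inmt differences was not tested.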

How the data were processed

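Liver RNA of 342 mice was measured on Affymetrix arrays. The deposited values are log2 expression per probe set, which the authors obtained by RMA (background correction, normalization and summary of a set's probes). The submitters' processing notes name Affymetrix Power Tools for this; its version is not given in the sources used. Values ran from 1.62 to 13.81 and array medians from 5.40 to 6.22, so arrays were also centred on their medians or quantile-normalized again. No signal over background was used and undetected probe sets were not removed, and the number of arrays limits the precision.

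Of 16397 probe sets, the 13083 that name 1 gene were used, 1 per gene (the highest mean), named through the platform table and RefSeq's gene table of GRCm38.p6, used for names and gene order. Pair differences (TAK-875 minus vehicle) were averaged per line and the 44 line means were tested against 0 with limma 3.58.1 in R 4.3.3 (two-sided, eBayes with trend, Benjamini-Hochberg adjusted p of 0.05). On simulated data over 9093 genes, with 8 false calls among 204 calls, the test found 59 of 63 shifts of 0.25, 64 of 64 of 0.5 and 73 of 73 of 1. The simulated noise was normal and drawn independently for each gene with its own SD over lines, and 200 genes were shifted. Real differences hold extreme pairs and genes that vary together, so these rates need not hold for the real calls. Other values were computed in Python 3.11.15 with numpy 2.4.6, pandas 2.3.3 and scipy 1.17.1, and figures drawn with matplotlib 3.10.9.

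The labels say that mice were treated in pairs. As a check, deviations of arrays of 1 pair correlated by 0.0361 on average, against -0.0117 for other pairs of a line, and 60 of 171 pairs exceeded 0.1. Arrays stand apart where their median correlation with their own line and treatment is below the lower quartile by over 3 interquartile ranges.

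The gene, the 20 gene lists and the tests were chosen with earlier results of these data known. Named genes were the 8 highest and 4 lowest r of pair differences, the 6 highest and 3 lowest r of vehicle line means, 5 measured neighbours on each side, 14 enzymes named whatever their result (9 were measured) and up to 4 of the largest called members per list.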

Additional observations from a re-analysis of the deposited data

Results flagged for a closer look

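Of 117 groups of 4 mice or 4 pairs in which the highest or lowest value was set against the rest by Dixon's criterion, 7 held a value that stood far from the others. Chance flags about 1 group in 20. Among vehicle mice these were 1 mouse of CC002/Unc with an Inmt level of 11.01 in a group with a median of 11.60, and 1 mouse of CC058/Unc at 9.43 with a median of 10.23. Among TAK-875 mice they were 1 mouse each of CC002/Unc at 9.30 (median 11.20), CC024/GeniUnc at 7.89 (median 10.73) and CC027/GeniUnc at 7.85 (median 10.12). All 5 of these mice were the lowest of their group. Among pair differences they were pair 3 of CC007/Unc at -4.29 (median -1.68) and pair 4 of CC061/GeniUnc at 1.31 (median -0.05).

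In 3 lines every pair had more Inmt with TAK-875, and in 5 lines every pair had less. These lines were picked by the signs of their own pairs, and a difference between them was not tested. With few pairs in a line, all signs can also agree by chance.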

How the results depend on the processing

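The mean difference of Inmt over lines was -0.26 with a replicate block (study pairs as the unit) and also with the mice unpaired, and -0.27 with arrays centred or quantile-normalized again. Leaving out each replicate number in turn gave -0.30 to -0.17. The likeness of Ces1d was 0.52 by Spearman's rho in place of 0.71 by Pearson's r. The other 142 alternatives for the main results kept their direction and their side of the threshold, or stayed within the spread. Some of the 142 could not differ, so their number overstates how much was tested. Averaging probe sets left the Inmt values as they were, since Inmt has 1 probe set. Study pairs as the unit and unpaired mice gave the same mean difference, -0.26. Many others left out only 1 line at a time, with means from -0.29 to -0.19. The replicate block changed none of the calls of the named pathway genes, but called 57 members of the 4 pathway lists in place of 43 and 3067 genes in all in place of 2466. Among single genes, r of Copg1 with Inmt in vehicle mice was -0.53 with centred arrays, -0.54 without replicate 3 and -0.35 when probe sets of a gene were averaged, in place of -0.64. Hnmt, Tpmt, Gnmt and Maob lost their calls in 13 alternatives between them. Of the 8 genes most like Inmt in response, 4 to 7 stayed among the 8 under another setting, and of the 4 least like it 1 to 4 stayed (1 without replicate 4, by rho and over line means). Another probe set of Inmt could not be tried, since the table holds 1. Depth has no counterpart here, and values near the array's lower end, such as those below 5, have no stated background.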
